A study of Mus musculus with 2 samples.

Results

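The 8 genes described here encode secreted protease inhibitors with Kazal-type domains (Spink1, Spink5, Spink8, Spink11 and Spinkl) or WAP domains (Wfdc2, Wfdc3 and Slpi). They were chosen by name with earlier results of these data known, and they are 8 of the 19320 features in the table. Their levels were read in luminal, proximal and basal epithelial cells of the mouse prostate, by the level of the reporter transcript EGFP and by barcode set. Because the same values led to the choice of the genes, the levels and differences are given as a description, without tests.

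The cells came from R26mTmG/hAR:Osr1Cre/+ mice on a mixed C57BL/6 and 129S1/SvImJ background. The Osr1-Cre allele recombines the R26 locus in Osr1-lineage cells, which turns on a human androgen receptor transgene (hARtg) and membrane green fluorescent protein (mGFP). No transgene-free control was among the samples. Tissue labelled prostatic intraepithelial neoplasia (PIN) gave 1 library and tissue labelled prostatic adenocarcinoma (PCa) gave 1 library, the PCa mouse being the older animal, so nothing has a replicate check. The labels do not tie the endings of the cell barcodes to the tissues. The endings are therefore called barcode set 1 and barcode set 2, and no PIN against PCa comparison was made.

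Kazal-type inhibitors block serine proteases by offering a rigid loop that sits in the active site like a substrate. Spink1 is the trypsin inhibitor of pancreatic juice, and in the mouse it is also a product of the male accessory glands. Spink5 is best known from the epidermis, where its fragments restrain kallikreins. WAP-domain proteins are small and held together by disulphide bonds. Slpi, a mucosal inhibitor of neutrophil elastase, belongs to them, as does Wfdc2, which is also known as the serum marker HE4. Such inhibitors accompany the proteases of the seminal plasma.

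The genes lie in few places in the mouse genome (build GRCm38.p6, RefSeq). Spink1 (43728069 to 43737237), Spink5 (43959545 to 44022487), Spinkl (44166358 to 44176707) and Spink11 (44190049 to 44196177) lie on chromosome 18 within 468 kb. Slpi (164354070 to 164356507), Wfdc2 (164562715 to 164568510) and Wfdc3 (164731226 to 164745994) lie on chromosome 2 within 392 kb. Spink8 lies alone on chromosome 9 (109812203 to 109826628). No stretch of 90% or more identity with another gene was found in the transcripts of the members, so no close copy was found that could have taken their reads.

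The neighbours Wfdc2 and Wfdc3 were high in different cells of the luminal class, and their promoters are therefore shown. Each holds the 300 bases around the RefSeq start, 5′ to 3′, and capitals mark the motif AGAACA or its reverse complement TGTTCT, the core of an androgen receptor element.

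Wfdc2 (chr2:164562465-164562764, plus strand, GRCm38.p6): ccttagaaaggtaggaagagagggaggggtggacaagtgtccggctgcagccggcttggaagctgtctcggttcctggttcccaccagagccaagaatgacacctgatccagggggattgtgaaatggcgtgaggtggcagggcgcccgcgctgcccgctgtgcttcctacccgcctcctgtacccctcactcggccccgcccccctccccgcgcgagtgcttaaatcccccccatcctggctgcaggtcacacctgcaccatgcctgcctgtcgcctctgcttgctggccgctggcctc
Wfdc3 (chr2:164743218-164743517, minus strand, GRCm38.p6): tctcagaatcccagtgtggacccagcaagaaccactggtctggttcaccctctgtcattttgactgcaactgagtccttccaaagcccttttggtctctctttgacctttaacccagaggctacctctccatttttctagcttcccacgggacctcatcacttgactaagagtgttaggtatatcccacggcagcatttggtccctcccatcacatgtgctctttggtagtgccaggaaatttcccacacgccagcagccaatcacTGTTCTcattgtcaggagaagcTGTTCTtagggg

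The Wfdc2 promoter was rich in G and C (65.3%) and held no match, whereas the Wfdc3 promoter (50%) held 2. The start used for Wfdc3 lies within its RefSeq gene span, so other transcripts of the gene begin elsewhere. The Slpi promoter (43.3%) held 0. The same motif occurred in 19.0% of the 32851 promoters of this length. The canonical androgen response element, which joins both forms of the shorter motif with 3 free bases between them, was in 3 promoters of the genome, and the TCF/LEF motif CTTTGAT was, on either strand, in 3.73%. Neither was in these 3 promoters. The promoters of Spink1, Spink5, Spink8, Spink11 and Spinkl were not read, so the motif does not set Wfdc3 apart among the members. The matches describe letters and not bound sites.

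The table held 6332 cells in set 1 and 9410 in set 2, with medians of 17235 and 14824.5 unique molecular identifiers (UMIs, tags of captured RNA molecules) per cell. After removal of called doublets 6182 and 9227 cells stayed, and 67 barcodes occurred in both sets. Levels are the UMIs of a gene, summed within a class and set, per 1000000 UMIs (CPM), with exact Poisson 95% intervals that cover counting error only. Clusters were named from marker genes. Luminal-like cells (2176 in set 1 and 5677 in set 2), proximal-like cells (625 and 226) and basal-like cells (1693 and 363) carried their own markers, with 9 of 9 luminal markers, 8 and 7 of 8 proximal markers, and 6 and 7 of 7 basal markers at 10 CPM or more. This count did not separate the classes, since luminal-like cells of set 1 also had 8 of 8 proximal and 6 of 7 basal markers. In set 2, 2892 and 1834 of the luminal-like cells were in clusters 0 and 2. These had 7 and 8 of 9 luminal markers at that level, and 0 among their 10 leading genes. Their luminal scores, the mean scaled level of the list against all epithelial clusters, were -0.406 and -0.255. Their luminal name therefore rests on weak markers. By summed level each list was highest in its own class in each set. The basal list of set 1 summed to 11443 CPM there, against 2785 CPM for the proximal-like class. The luminal list of set 2 differed less, at 19393 CPM in its own class against 15647 CPM for the proximal-like class. A further luminal cluster led by seminal vesicle secretory genes (Svs5, Svs4 and Svs3a) stayed unnamed and is called Svs-led. It held 277 and 2052 cells, but its set 1 cells had seminal vesicle markers at a summed 6.29 CPM against 7233 CPM in set 2, and Psca at 7255 against 129.6 CPM. The Svs label thus describes its set 2 cells. In luminal-like cells 1 of 9 leukocyte markers in set 1 (Cd74, 3301 CPM) and 0 of 9 in set 2 reached 10 CPM, and Ptprc, the defining one, was at 0.36 and 0.09 CPM.

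Class names of some cells depended on the joining of the barcode sets by integration. Without it, 86 of the 149 set 2 cells of cluster 8, a proximal-like cluster led by Sbpl, Sbp and Cxcl17, fell in a cluster named luminal-like. Likewise 112 of the 400 set 1 cells of cluster 5, a luminal-like cluster led by Msmb, and 227 of the 277 set 1 Svs-led cells fell in a proximal-like cluster that had Psca among its leading genes. These cells held much of the Spink1, Spink5 and Spink11, so the clusters are named with the results.

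Free RNA from broken cells was judged in leukocytes (Ptprc above 0 and Epcam 0, 702 cells in set 1 and 165 in set 2), which should not make epithelial inhibitors. Their median depth was 3795.5 UMIs in set 1 and 7484 in set 2, against 28557.5 and 15813 in luminal-like cells. Shares of cells with a UMI were therefore compared after thinning cells to 3000 UMIs. Cells with fewer UMIs were left out, so the leukocyte shares come from the deeper leukocytes. Leukocytes of set 2 held Spink8 at 50.4 CPM (95% interval 39.0 to 64.2) and 15.8% of the thinned cells had a UMI of it (exact 95% interval 10.4 to 22.6%). Spink1 stood at 21.4 CPM there and at 7.75 CPM in set 1. Wfdc2 and Wfdc3 stood at 25.7 and 25.4 CPM in set 1 and at 1.53 and 2.29 CPM in set 2. In set 1 cells with a Cd3 UMI, 7 members had 1.47 to 4.64% of their level over all cells, a range that also held the epithelial genes Krt8 (2.30%) and Pbsn (3.42%). Slpi was the exception and is described with its own values. Members whose thinned share lay above that of leukocytes numbered 5 in luminal-like, 6 in Svs-led, 4 in proximal-like and 1 in basal-like cells of set 1, and 1, 1, 4 and 1 in set 2.

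**Figure D1:**
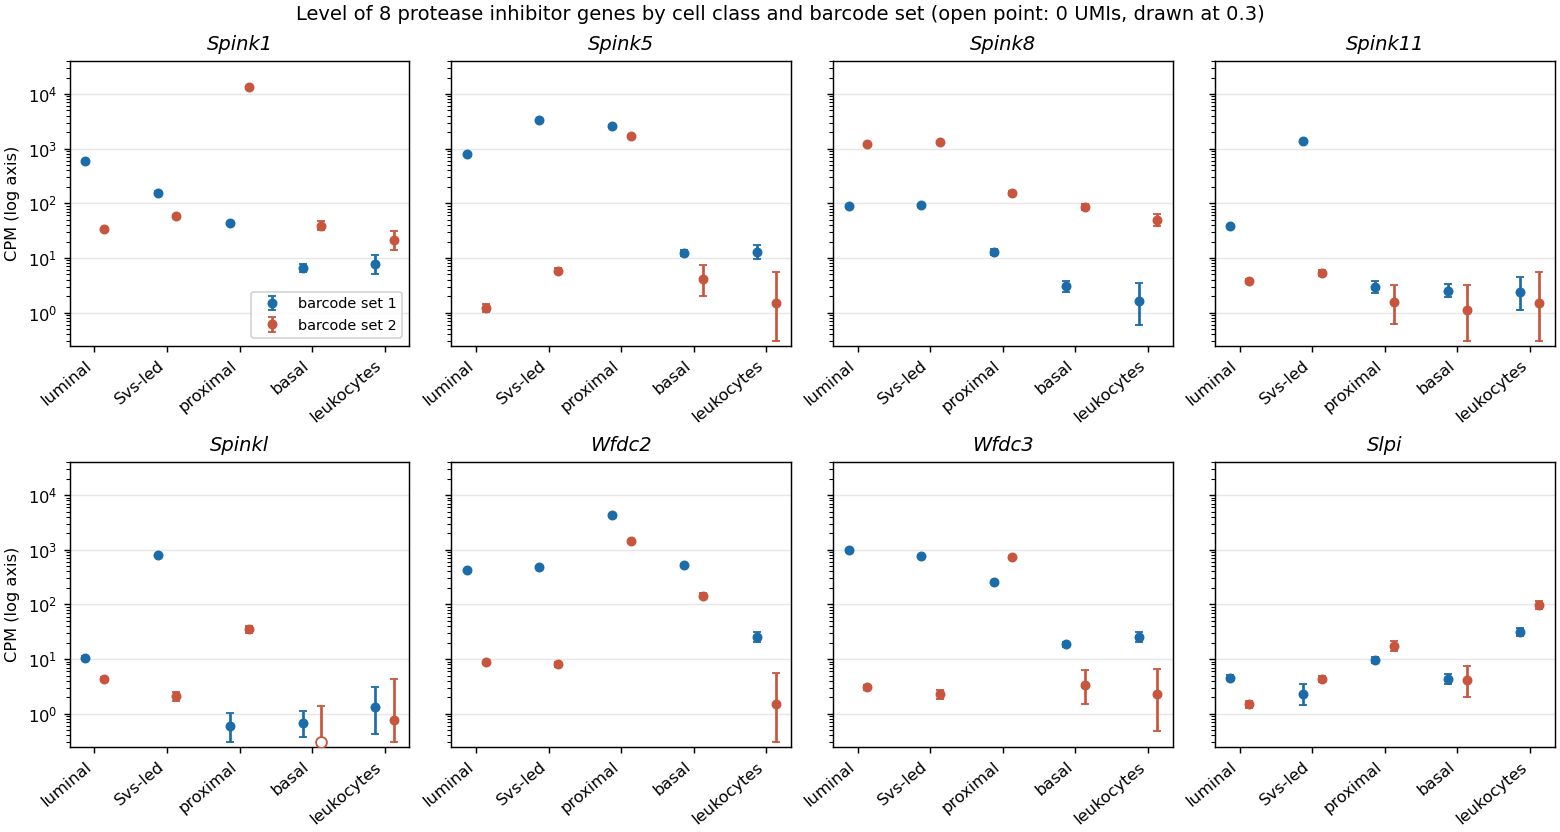
Level of each gene (CPM, log axis) in 5 cell classes, with set 1 in blue and set 2 in red; bars are exact Poisson 95% intervals for counting error, and the open point is a sum of 0 UMIs drawn at 0.3. Spink8 of set 2 stands near 1200 CPM in luminal-like cells and Spink1 of set 2 at 13356 CPM in proximal-like cells, whereas Slpi is highest in leukocytes among the classes drawn.

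Spink1 was carried by few cells, at very high levels. In set 1 its level was 586 CPM (95% interval 581 to 592) in luminal-like, 156 CPM in Svs-led, 42.7 CPM in proximal-like and 6.55 CPM in basal-like cells. In set 2 it was 13356 CPM (95% interval 13250.3 to 13463) in proximal-like, 58.1 CPM in Svs-led and 39.1 CPM in basal-like cells, while luminal-like cells had 34.3 CPM. Basal-like and luminal-like cells of set 2 had overlapping intervals (basal-like 31.99 to 47.3, luminal-like 33.3 to 35.4 CPM). The basal-like level of set 1 overlapped the leukocyte level, so Spink1 there did not stand above free RNA. In set 2 the thinned shares in luminal-like (4.33%), Svs-led (3.48%) and basal-like cells (5.59%) lay near that of leukocytes (4.61%), with overlapping intervals. In addition, 1 cell held 1565 of the 2931 Spink1 UMIs of the Svs-led cells of set 2 and 1 cell held 2016 of the 4030 of its luminal-like cells, so no order is read between these 3 classes.

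The Spink1 of set 2 sat in the cluster led by Sbpl, Sbp and Cxcl17 (cluster 8), at 20466 CPM, and 62.1% of its thinned cells had a UMI. In the other proximal-like cluster, led by Msln, Cxcl5 and Ltf (cluster 9), it was 11.4 CPM. Set 1 cells of cluster 8 had 56.3 CPM. Of the set 2 cells of cluster 8, the 86 that a clustering without integration put in a luminal-like cluster had 33729.8 CPM, and the 36 that it put in a proximal-like cluster had 1212 CPM. Whether the Spink1-high cells of set 2 are counted as proximal or luminal therefore rests on the clustering. Sbpl and Sbp, the latter a spermine-binding protein of prostatic secretion, led the cluster either way. All proximal markers but Krt7 (367 against 268 CPM) were lower in set 2 than in set 1 cells of cluster 8. Krt4 was 41.9 against 420 CPM, Ly6d 33.4 against 331 CPM and Psca 3886 against 6305 CPM. The proximal-like name of its set 2 cells thus rests mostly on Psca.

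In set 1, Spink1 stood highest in the Msmb-led cluster 5, at 2623 CPM, against 10.7 CPM in cluster 3 (led by Clu and Krt6a) and 8.05 CPM in cluster 6 (led by Ren1 and Tgm4). The 112 cells of cluster 5 that left it without integration held 8619 CPM and the 283 that stayed Msmb-led held 369.7 CPM. A cell was called high for a gene when 10 or more of each 10000 UMIs were of that gene. By this measure 58 of 2176 luminal-like cells of set 1 (2.67%) were Spink1-high, and they held 98.9% of its luminal UMIs. The highest had 3266 Spink1 UMIs, 10.0% of the RNA counted in it. In set 2, 91 of 226 proximal-like cells (40.3%) were high and held 99.9% of the Spink1 UMIs, up to 13.4% of the RNA of a cell.

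Spink5 was high in proximal-like cells of each set and nearly missing from luminal-like cells of set 2. In set 1 it was 3356 CPM in Svs-led, 2556 CPM in proximal-like, 785 CPM in luminal-like and 12.4 CPM in basal-like cells. Basal-like cells and leukocytes (12.8 CPM) overlapped in their intervals. In set 2 it was 1709 CPM (95% interval 1671 to 1747) in proximal-like cells and 1.21 CPM (95% interval 1.02 to 1.43) in luminal-like cells, of which 0.337% had a UMI after thinning against 1.32% of leukocytes. The clusters that carried it were 8 (3379 and 2599 CPM in sets 1 and 2), 5 in set 1 (3262 CPM) and the Svs-led cluster of set 1. In cluster 5 of set 2 it was 1.39 CPM. The set 2 cells of that cluster had luminal markers, Msmb among them, at a summed 12805 CPM, against 61653.5 CPM in set 1. Without integration the cluster led by Msmb held 366 cells of set 1 and 2 of set 2. The Msmb-led name thus describes set 1 cells, and the 2 sets of cluster 5 are not read as 1 cell type. Among luminal-like cells of set 1, 86 of 2176 were Spink5-high and held 97.3% of its UMIs. The 112 cells of cluster 5 named above had Spink5 at 11417 CPM, and the 283 others at 212 CPM.

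Spink1 and Spink5 were high in many of the same cells. In luminal-like cells of set 1, 43 cells were high for both, which is 74.1% of the Spink1-high cells and 50% of the Spink5-high cells, where 2.67% and 3.95% of all luminal-like cells were high for each. In proximal-like cells of set 2 it was 34 cells, 37.4% of the Spink1-high and 72.3% of the Spink5-high cells. Of all these proximal-like cells 40.3% were Spink1-high and 20.8% were Spink5-high.

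Spink8 was spread over most luminal cells of barcode set 2. It was 1199.6 CPM (95% interval 1193 to 1206) in luminal-like and 1308 CPM in Svs-led cells of set 2, against 89.2 CPM (95% interval 87.0 to 91.4) and 92.5 CPM in set 1. A UMI was seen in 86.7% of thinned luminal-like cells of set 2 and in 18.6% of those of set 1, and 2972 of 5677 cells of set 2 (52.4%) were high. The level differed little between the luminal clusters of set 2, from 924 CPM in cluster 3 to 1406 CPM in cluster 0 (led by Wnt6 and Cox4i2), except in cluster 6 (233 CPM). In set 1 the Msmb-led cluster was highest, at 179 CPM. Proximal-like cells of set 2 had 155 CPM and basal-like cells 86.0 CPM. The thinned share in basal-like cells (17.4%) had an interval (13.5 to 21.8%) that held the leukocyte share (15.8%). By share, Spink8 in basal-like cells of set 2 thus did not exceed the free-RNA background. By CPM its level there lay above that of these leukocytes, but not with a stricter leukocyte gate.

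Spink11 and Spinkl, neighbours on chromosome 18, were highest in the Svs-led cells of set 1, at 1387 CPM (95% interval 1363 to 1412) and 785 CPM (95% interval 766 to 803). Luminal-like cells of set 1 had 39.1 and 10.7 CPM. In the Svs-led cells of set 2, where the Svs genes themselves were high, they were 5.23 and 2.08 CPM. Of the 277 Svs-led cells of set 1, 55 were Spink11-high, 27 were Spinkl-high and 21 were both, which is 38.2% of the former and 77.8% of the latter. The highest cell held 1850 Spinkl UMIs, 2.61% of its RNA. The 62 Spink5-high cells of the same cluster were other cells for the most part, with 2 that were also Spink11-high (3.23% of the Spink5-high and 3.64% of the Spink11-high cells) and 0 that were also Spinkl-high.

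In luminal-like cells of set 2 few cells held these genes. There were 7 Spink11-high cells, with 82.8% of its UMIs, and 10 Spinkl-high cells, with 84.2%, and most UMIs were in cluster 6 (60.5 CPM for Spink11 and 71.5 CPM for Spinkl). In proximal-like cells of set 2, 4 cells held 99.4% of the Spinkl UMIs.

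**Figure D2:**
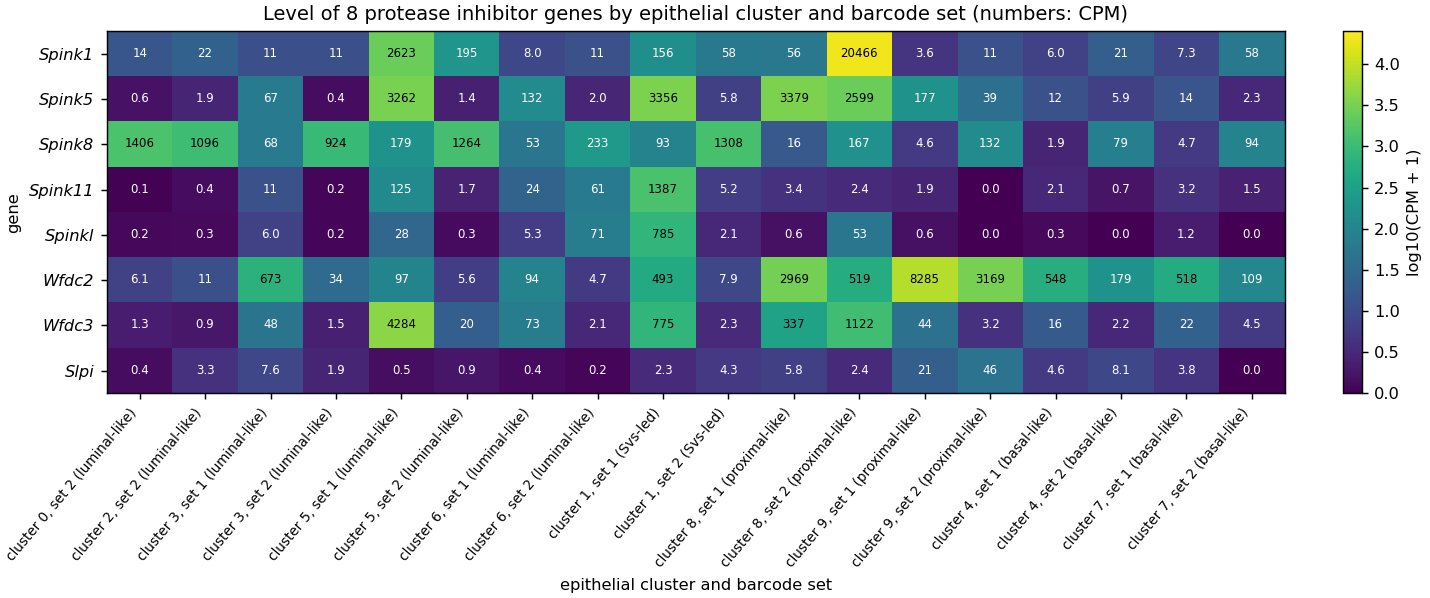
Level of each gene (rows) in each epithelial cluster and barcode set (columns, with the class in brackets); colour is log10(CPM + 1) and the numbers are CPM. Spink1 of set 2 peaks in cluster 8, Spink8 fills the luminal columns of set 2, and Wfdc2 peaks in cluster 9 whereas Wfdc3 peaks in cluster 5 of set 1.

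Wfdc2 marked the proximal-like cells. It was 4336 CPM (95% interval 4307 to 4364) there in set 1 and 1440.2 CPM (95% interval 1406 to 1476) in set 2, and 92.4% and 55.2% of thinned cells had a UMI. Within them the Msln-led cluster 9 was highest (8285 CPM in set 1 and 3169 CPM in set 2), above cluster 8 (2969 and 519 CPM). Wfdc2 was also the member that stood above leukocytes in basal-like cells of each set, at 535 CPM (54.1% of thinned cells against 8.27% of leukocytes) in set 1 and 144 CPM (19.4% against 0 of 152 leukocytes, which allows up to 2.40%) in set 2. The basal clusters 4 (led by Krt14 and Aqp3) and 7 (led by Htra1 and Ltbp4) had 548 and 518 CPM in set 1. Luminal-like cells had 427 CPM in set 1, most of it in cluster 3 (673 CPM), and 8.74 CPM in set 2.

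Wfdc3 had another distribution. It was 987 CPM (95% interval 980.1 to 995) in luminal-like cells of set 1, from cluster 5, where it reached 4284 CPM and was seen in 83.9% of thinned cells. The 283 cells of that cluster that stayed Msmb-led without integration had 5274 CPM and the 112 others 1728 CPM. Svs-led cells of set 1 had 775 CPM. In set 2 it was 733 CPM in proximal-like cells, from cluster 8 (1122 CPM), and 3.06 CPM in luminal-like cells. The 178 Wfdc3 UMIs of the highest of these luminal-like cells were 49.6% of all Wfdc3 UMIs of the class.

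The high cells of Wfdc2 and Wfdc3 hardly met in luminal-like cells of set 1. There 232 were Wfdc2-high and 296 were Wfdc3-high, and 6 were both, 2.59% of the former and 2.03% of the latter. Spink1-high and Wfdc3-high cells of that class and set shared 34, which is 58.6% of the Spink1-high and 11.5% of the Wfdc3-high cells. In proximal-like cells of set 1, 16 of the 34 Wfdc3-high cells (47.1%) were also Wfdc2-high, where 80.3% of all were. In Svs-led cells of set 1 it was 4 of 36 (11.1%), where 14.8% of all were. In proximal-like cells of set 2 it was 1 of 38 (2.63%), where 40.3% of all were. In proximal-like cells of set 2 all 38 Wfdc3-high cells were among the 91 Spink1-high cells (41.8% of them), while 2 cells were both Spink1-high and Wfdc2-high, 2.20% of each. In proximal-like cells of set 1, 169 cells were high for Spink5 and Wfdc2, 88.9% of the Spink5-high and 33.7% of the Wfdc2-high cells. Of all these proximal-like cells 80.3% were Wfdc2-high and 30.4% were Spink5-high, so this overlap was near the shares of the class.

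**Figure D3:**
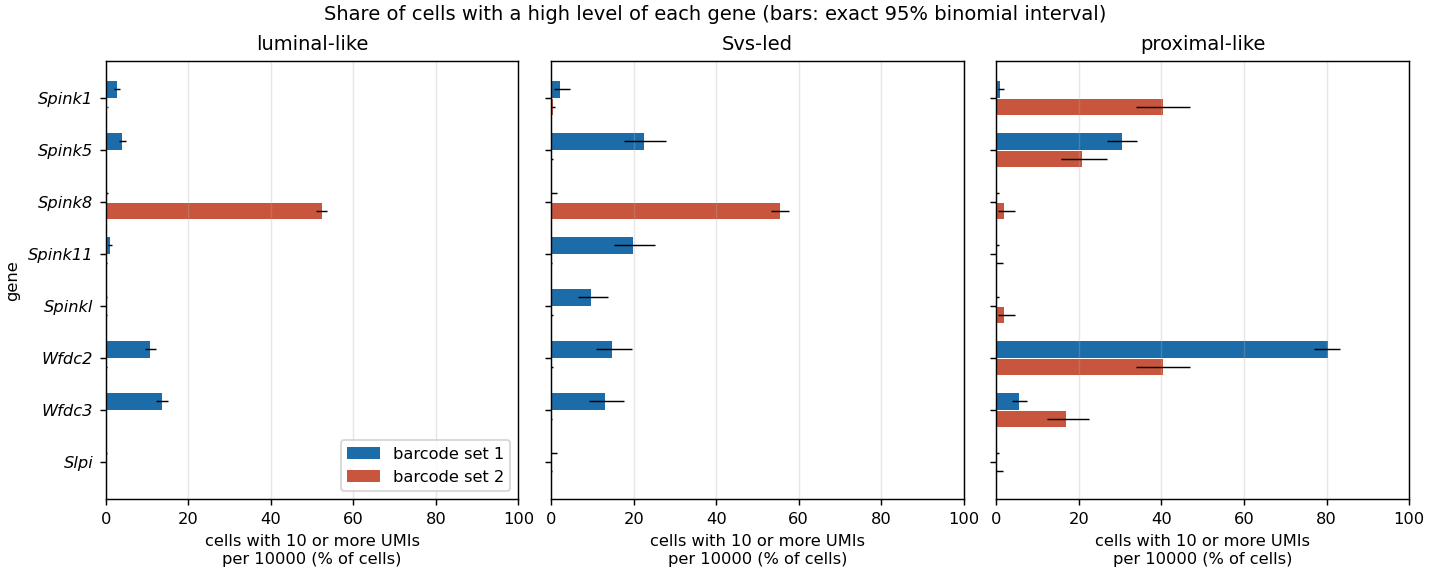
Share of cells with 10 or more UMIs of a gene per 10000 (x axis, % of cells) in luminal-like, Svs-led and proximal-like cells, with set 1 in blue and set 2 in red; lines are exact 95% binomial intervals. Spink8 is high in 52.4% of luminal-like cells of set 2 and Wfdc2 in 80.3% of proximal-like cells of set 1, whereas Spink1 is high in 2.67% of luminal-like cells of set 1 and in 40.3% of proximal-like cells of set 2.

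Slpi was low in the epithelium. It ranged from 1.48 CPM in luminal-like cells of set 2 to 17.4 CPM in proximal-like cells of set 2, and the Msln-led cluster 9 was highest (20.8 and 45.6 CPM in sets 1 and 2). Leukocytes had more, 31.5 CPM (95% interval 26.1 to 37.8) in set 1 and 97.8 CPM (95% interval 81.6 to 116) in set 2. Those levels came from few cells, since 118 UMIs of set 1 sat in 9 cells and 128 UMIs of set 2 in 14 cells, so Slpi was no gauge of free RNA. By thinned share Slpi lay above leukocytes in 0 of the 4 epithelial classes of each set.

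The comparison by reporter asked whether the members differ between epithelial cells with much and with little EGFP. A low EGFP level does not show that a cell was unrecombined. In cluster 7 of set 1, 578 of 602 cells (96.0%) had a UMI of the transgene (feature ARQ), while 151 cells were EGFP-low. EGFP-high cells had 20 or more EGFP UMIs per 10000 and EGFP-low cells under 5. Leukocytes, summed, had EGFP at 41.9 CPM in set 1 and 342 CPM in set 2, which is under the EGFP-low limit. However, the 17 leukocytes of set 2 with a Cd3 UMI had 554 CPM, on 32 UMIs, which is over it. Free EGFP in set 2 was therefore near the limit. A member was called higher or lower at a 2-fold ratio after 10 CPM were added to each side. In luminal-like cells of set 1 (159 EGFP-high and 1956 EGFP-low cells) 4 members were higher and 0 lower, where 2.05% of all genes tested were higher and 0.799% lower. In set 2 (5474 and 162 cells) 2 were higher and 3 lower, where 8.12% and 9.27% of genes were. The comparison is a part of how the genes were chosen, so nothing is read from these counts.

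In luminal-like cells of set 1, Spink5 was 6785 CPM in EGFP-high and 184 CPM in EGFP-low cells, a log2 ratio of 5.21 (95% interval 5.18 to 5.24). Spink1 was 4122 against 209 CPM (log2 ratio 4.30, 95% interval 4.27 to 4.33). The thinned shares of cells moved the same way, to 40.5% (32.8 to 48.6%) of EGFP-high from 5.49% (4.52 to 6.60%) of EGFP-low cells for Spink5, and to 24.7% (18.2 to 32.2%) from 2.36% (1.73 to 3.14%) for Spink1. Values in brackets after CPM or after a gene are log2 ratios of CPM. Spink11 was 178 against 20.7 CPM (3.1) and Spinkl 29.3 against 9.14 CPM (1.68). Without the 10 cells of each side with the most Spinkl UMIs, its log2 ratio with the pseudocount was -0.16, so Spinkl rested on those cells. Spink8 (-0.01), Wfdc2 (-0.69) and Wfdc3 (0.44) stayed within 2-fold.

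The sides differed in cluster makeup, since 98 of the 159 EGFP-high cells were in the Msmb-led cluster 5, and 1188 of the 1956 EGFP-low cells were in cluster 3. Within cluster 5 of set 1 (98 and 279 cells), Spink5 was 10482 against 825 CPM (3.67) and Spink1 6468 against 1164 CPM (2.47), while Wfdc3 was lower (-1.38) and so was Spinkl (-2.53). With Spink11 (1.93) that made 3 higher and 2 lower, where 1.71% and 0.874% of genes were. The Spinkl call rests on 1 cell, which held 357 of the 419 Spinkl UMIs of the cluster. Cluster 5 of set 1 was itself mixed. Its cells that left it without integration had more Spink1 and Spink5 and less Wfdc3 than those that stayed. How these cells split by EGFP was not tested. In the Svs-led cells of set 1 (163 and 66 cells), Spinkl (4.55), Spink1 (4.24) and Spink5 (1.97) were higher in EGFP-high cells, 3 members and 0 lower where 0.426% and 1.01% of genes were. Spink11 was within 2-fold there (0.88). Of the Svs-led cells of set 1, 6 held 95.8% of the 1416 Spink1 UMIs, 1 of them 530. For Spinkl, 1 cell held 1850 of the 7104 UMIs. These 2 ratios therefore rest on few cells.

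In luminal-like cells of set 2, Spink8 was 1239 CPM in EGFP-high and 183 CPM in EGFP-low cells (log2 ratio 2.76, 95% interval 2.65 to 2.87), and its share was 89.1% (88.3 to 89.9%) against 36.3% (28.8 to 44.3%). It climbed with each EGFP class, from 183 CPM under 5 EGFP UMIs per 10000 through 212, 816 and 1201 to 1322 CPM at 100 or more. However, 155 of the 162 EGFP-low cells were in cluster 6. Within cluster 6 of set 2 (86 and 155 cells) Spink8 was 347 against 164 CPM (1.08), a smaller ratio than over the class, and it was the 1 member called there, where 1.25% of genes were higher and 0.0428% lower. Over all luminal-like cells of set 2, Spink11 (-5.06), Spinkl (-5.62) and Wfdc3 (-4.98) were lower and Spink1 higher (1.86). Without the 10 highest cells of each side these calls were lost, with Spink11 at 0.02, Spinkl at -0.01, Wfdc3 at 0.15 and Spink1 at 0.42 with the pseudocount. Without integration, where the Sbp-led cells of set 2 count as luminal-like, Spink1 turned to -5.19 on that scale.

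**Figure D4:**
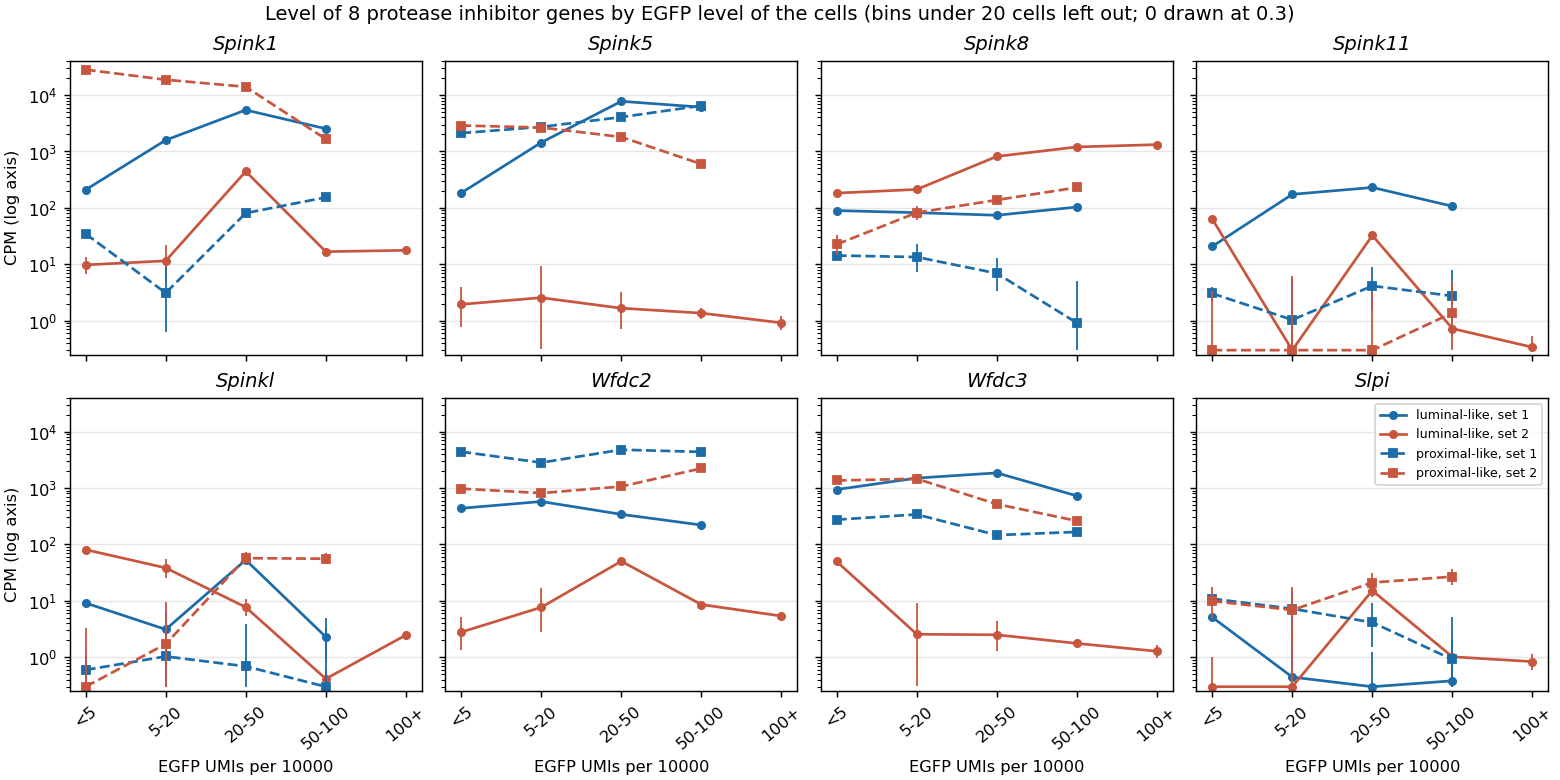
Level of each gene (CPM, log axis) by the EGFP level of the cells (EGFP UMIs per 10000, x axis) in luminal-like cells (circles) and proximal-like cells (squares) of set 1 (blue) and set 2 (red); vertical lines are exact Poisson 95% intervals, bins under 20 cells are left out and 0 is drawn at 0.3. Spink5 of luminal-like cells climbs in set 1 from 184 CPM at the lowest EGFP, and Spink1 of proximal-like cells falls in set 2 from 28212 to 1659 CPM.

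In proximal-like cells the summed levels of Spink1 and Spink5 went opposite ways in the sets. In set 1 (84 EGFP-high and 519 EGFP-low cells) Spink5 was 5308 against 2114 CPM (1.33) and Spink1 109 against 34.7 CPM (1.65), 2 members higher and 0 lower where 1.04% and 0.913% of genes were. Within cluster 8 of set 1 (71 and 367 cells) Spink5 (1.18) and Spink1 (1.49) were likewise higher and Wfdc3 lower (-1.76), where 1.62% and 1.36% of genes were. The Spink1 ratio of set 1 rests on few cells, since 5 proximal-like cells held 88.4% of its 871 UMIs, 1 of them 261. The thinned share with Spink1 was 4.76% (1.31 to 11.7%) of EGFP-high and 1.94% (0.935 to 3.54%) of EGFP-low cells, which overlapped, and that with Spink5 57.1% (45.9 to 67.9%) and 35.9% (31.8 to 40.2%). In set 2 (138 and 61 cells) Spink1 was 6477 against 28212 CPM (-2.12), Spink5 1057 against 2884 CPM (-1.45) and Wfdc3 341 against 1359 CPM (-1.99). The thinned share with Spink1 was 26.5% (19.3 to 34.7%) of EGFP-high and 67.8% (54.4 to 79.4%) of EGFP-low cells, and that with Spink5 was 17.6% (11.6 to 25.1%) and 28.8% (17.8 to 42.1%), which overlapped. The sides differed in makeup, with 58 of the 138 EGFP-high and 14 of the 61 EGFP-low cells in cluster 9, where Spink1 was 11.4 CPM, and the others in cluster 8, whose sides (80 and 47 cells) were too few for a ratio. Spink8 was higher (3.30) and Spinkl, at 157 against 0 UMIs, was higher by a log2 ratio of at least 4.35 against a floor of 3 UMIs for the summed EGFP-low cells, though 5 proximal-like cells of set 2 in all had a UMI of it. That makes 2 higher and 3 lower in set 2, where 2.46% and 0.99% of genes were. Wfdc2 stayed within 2-fold in each set (0.03 and 0.85).

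Basal-like cells differed little by EGFP. In set 1 (437 and 1195 cells) 0 members were called, where 1.14% of genes were higher and 1.14% lower, and Wfdc2 was 478 against 558 CPM (log2 ratio -0.22, 95% interval -0.28 to -0.16). In set 2 (164 and 135 cells) Spink1 (1.71) and Spink8 (1.51) were higher, 2 members and 0 lower where 0.778% and 0.397% of genes were. Both rested on 17 to 169 UMIs a side, the share of basal-like cells with a UMI overlapped that of leukocytes for both genes, and neither was called without the 10 highest cells of each side. Within cluster 7, 0 members were called in set 1 (403 and 151 cells), where 0.0774% of genes were higher and 0.108% lower. In set 2 Spink1 (1.77) and Spink8 (1.25) were called in cluster 7 (103 and 58 cells), where 1.86% of genes were higher and 0.997% lower. In cluster 4 (61 and 77 cells) it was Spink8 (1.75) and Slpi, the latter on 10 against 1 UMIs (3.46, 95% interval 0.65 to 8.9), where 1.97% and 0.948% of genes were.

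**Figure D5:**
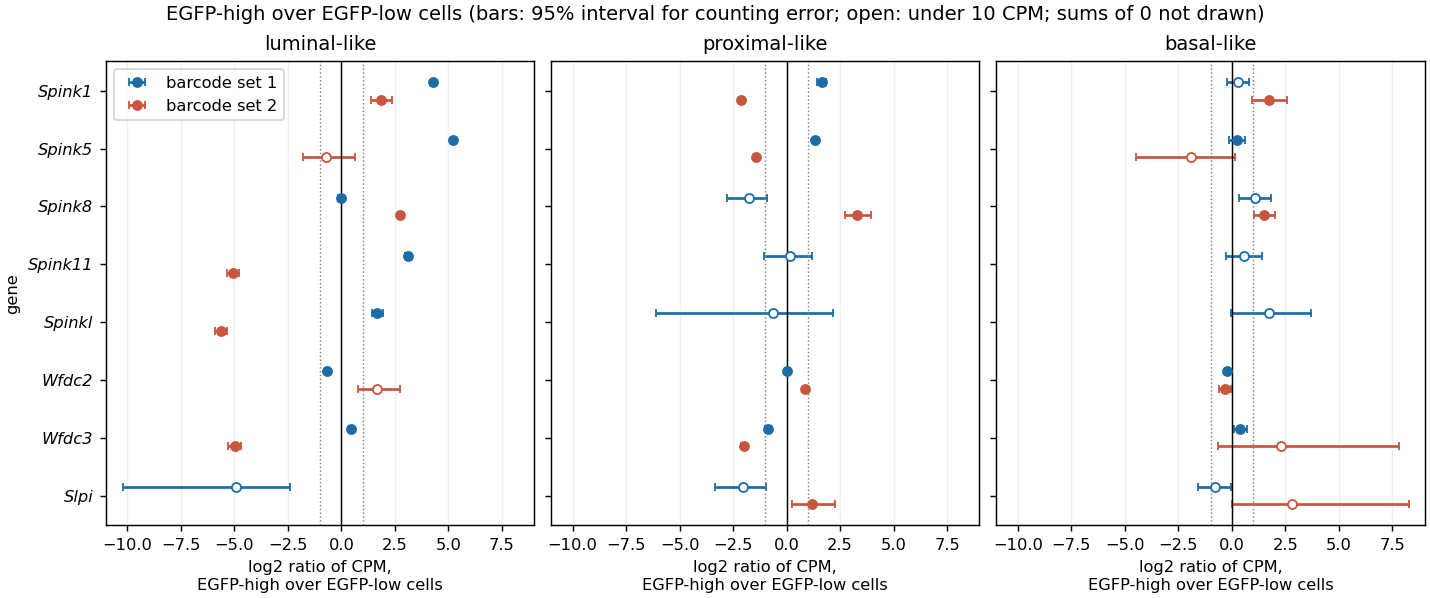
Log2 ratio of CPM in EGFP-high over EGFP-low cells (x axis) for each gene in luminal-like, proximal-like and basal-like cells of set 1 (blue) and set 2 (red); bars are 95% intervals for counting error, dotted lines mark 2-fold, open points have a mean under 10 CPM and sums of 0 are not drawn. Spink1 and Spink5 of proximal-like cells lie right of 0 in set 1 and left of it in set 2.

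Proximal-like cells were set against luminal-like cells within each set. In set 1 Wfdc2 (3.34) and Spink5 (1.70) were higher, and Spink1 (-3.78), Spink11 (-3.71), Spink8 (-2.78) and Wfdc3 (-1.92) lower, so 2 were higher and 4 lower where 2.33% and 1.64% of genes were. In set 2 Spink5 (10.46), Spink1 (8.60), Wfdc3 (7.91), Wfdc2 (7.36) and Spinkl (3.02) were higher and Spink8 (-2.95) lower, 5 and 1 where 9.41% and 5.4% of genes were. Without the 10 highest cells of each side the Spinkl call was lost (-0.087 on the pseudocount scale), which left 4 higher. Wfdc2 and Spink5 were thus higher, and Spink8 lower, in each set. The direction of Spink1 turned without integration in each set, to 2.64 in set 1 and -0.13 in set 2 (pseudocount scale), and that of Spink11 in set 1, to 3.105.

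Basal-like cells were set against luminal-like cells in the same way. In set 1, 5 members were lower and 0 higher, where 14% of genes were lower and 5.96% higher. These were Spink1 (-6.48), Spink5 (-5.98), Wfdc3 (-5.72), Spink8 (-4.88) and Spink11 (-3.95). In set 2 Spink8 was lower (-3.80) and Wfdc2 higher (4.04), where 15.7% and 13.3% of genes were. Wfdc2 in set 1 was within 2-fold (0.32), as was Spink1 in set 2. The other members of set 2 (Spink5, Spink11, Spinkl, Wfdc3 and Slpi) had means under 10 CPM and were not compared.

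Between the sets, EGFP-high luminal-like cells of set 2 had more Spink8 (log2 ratio 3.80, 95% interval 3.68 to 3.93) and less of 6 other members than those of set 1, from Spinkl (-4.16) to Spink5 (-12.49), where 6.23% of genes were higher and 10.6% lower. These sides came from different clusters, since 2888 of the 5474 set 2 cells were in cluster 0, which held 1 of the 159 set 1 cells. In basal-like cells Spink8 (4.83) and Spink1 (2.58) were higher in set 2, and Wfdc3 (-2.48) and Wfdc2 (-1.89) lower, where 1.65% and 2.47% of genes were. Without the 10 highest cells of each side 2 of these 4 calls were left, with Spink1 at 0.79 (pseudocount scale) and Wfdc3 under the filter of 10 CPM. In proximal-like cells Spink1 (8.29), Spinkl (5.89), Spink8 (3.58) and Wfdc3 (1.49) were higher in set 2 and Wfdc2 lower (-1.59), where 1.9% and 2.62% of genes were. The leukocytes of set 2 also held more Spink8 and Spink1 and less Wfdc2 and Wfdc3 than those of set 1. Tissue, animal and library cannot be told apart between the sets.

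Over the 18 sums of 50 or more cells (epithelial cluster by set), the features whose log2(CPM + 10) followed each member most closely were found. These are descriptions, since the sums share cells of 2 libraries. Spink1 was closest to Dcaf12l1 (Pearson r = 0.90), Sbp (0.90) and Smco4 (0.90). Spink5 was closest to the interferon-induced Ifit1 (0.95), to Wfdc3 (0.94) and to Timp4, a metalloproteinase inhibitor (0.93). Spink8 followed Coq4 (0.95), Lap3 (0.95) and Dtnb (0.94). Spink11 and Spinkl were close to each other (0.90) and to the kallikrein gene Klk1b21 (0.88 and 0.81), followed by Apmap for Spink11 (0.85) and Sin3b for Spinkl (0.83). Wfdc2 followed Sh3pxd2a (0.96), Tnip1 (0.96) and Fam129a (0.96). Wfdc3 followed Abo (0.97), Spink5 and H2-Q10 (0.93), and Slpi followed Cd14 (0.94) and Csf1 (0.92).

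Other genes of the protease and inhibitor system were read from 4 lists. They were not compared by EGFP within clusters, although the luminal-like sides differed in cluster makeup, as given above. In set 2, 155 of the 162 EGFP-low cells were in cluster 6, against 86 of the 5474 EGFP-high cells. Reporter level and cluster therefore cannot be told apart for the listed genes. Of 8 other Kazal-type genes 6 were in the table and 0 reached the level for a comparison. Of 19 other WAP-domain genes 15 were in the table, and in luminal-like cells by EGFP 1 was compared in set 1 (Wfdc18, 6.68 against 26.3 CPM, lower) and 2 in set 2, both higher (Wfdc15b, 153 against 7.24 CPM, and Wfdc12, 53.4 against 3.06 CPM). Of 29 serine proteases and their receptor, 19 were in the table. In the same comparison 0 of 7 passed 2-fold in set 1 (median log2 ratio -0.56, against -0.10 over all genes tested) and 2 of 5 in set 2, both lower (median -0.27 against -0.09), namely Tmprss2 (21.8 against 146 CPM), an androgen-responsive membrane protease, and Plat, a plasminogen activator (8.44 against 104 CPM). Of 20 other inhibitors, serpins, cystatins and tissue inhibitors of metalloproteinases among them, 0 of 13 were higher and 1 lower in set 1 (median -0.56), and 1 of 12 was higher and 5 lower in set 2 (median -0.74). Serpinb1a, an inhibitor of neutrophil proteases, was the gene of these lists lower in each set, at 64.4 against 159 CPM in set 1 and 7.14 against 310.3 CPM in set 2.

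In proximal-like against luminal-like cells, 2 of 9 proteases were higher and 1 lower in set 1, and 3 of 6 were higher and 0 lower in set 2. Prss22, a serine protease related to tryptase, was higher in each, at 231 against 15.2 CPM in set 1 and 139 against 15.9 CPM in set 2. In basal-like against luminal-like cells, 3 of 15 other inhibitors were higher and 7 lower in set 1, and 5 of 12 were higher and 2 lower in set 2. Serpinb5, known as maspin, was higher in each (602 against 137 CPM and 487 against 6.20 CPM). Prss22 and Serpinb5 were named here after their values were seen.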

How the data were processed

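Single cells of 1 PIN and 1 PCa tissue were captured in droplets, and the authors counted UMIs at transcript 3′ ends with Cell Ranger 3.1.0 against mm10 (per the labels' processing notes), with the reporter and transgene as features EGFP and ARQ. Per the values, the deposited table holds natural log units, ln(1 + 10000 × share of the cell's UMIs), although counts had been planned for. Whole UMIs were recovered for 100% of values above 0 within 0.001, and all steps used them. With 1 library per group there was no test across samples, and no p-value is given. Neither labels nor column names tie the barcode endings to the tissues.

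Cells were scored per set with Scrublet (scanpy 1.11.5). Its automatic limit called 0 cells, so cells scoring over 0.25, a limit chosen with the scores in view, were removed, namely 150 and 183 cells. The lowest number of genes in a cell was 1002 and the highest mitochondrial share 9.99%. Clustering used Seurat 5.3.0 in R 4.3.3 with integration of the sets (2000 features, 30 components, 20 dimensions, resolution 0.5), with the members, the listed genes and others (84 in all) kept out of the features. A cluster took the class of its markers when at least 3 were seen in 25% of cells and its 10 leading genes did not favour another class.

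UMIs were summed by class and set. A ratio was called at 2-fold after 10 CPM were added to each side, for features with a mean of 10 CPM, with 50 or more cells a side and a floor of 3 UMIs for a sum of 0. Shares carry exact Clopper-Pearson intervals and ratios conditional binomial ones, which cover counting error only. The steps were tested on simulated data. The members and lists were chosen with earlier results of these data known. The text names all members, the 3 features most like each member with 500 or more epithelial UMIs, and up to 3 listed genes higher and 3 lower past 2-fold in each set by EGFP in luminal-like cells; other listed genes are named where a count is of 5 or fewer. A feature that this rule names for Slpi is not reported here. Transcripts were compared with blastn 2.17.0. Alternatives covered clustering, EGFP limits, scaling, filters, thinning, the leukocyte gate and leaving out the highest cells; leaving out these cells and counting the Svs-led cells as luminal-like were added after the data were seen.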

Additional observations from a re-analysis of the deposited data

Results flagged for a closer look

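Some differences between the barcode sets were picked out because the same contrast pointed opposite ways. They are values for counting error only, and the differences between the sets were not tested. In luminal-like cells by EGFP, Spink11 had a log2 ratio of 3.1 in set 1 and -5.06 in set 2, and Spinkl had 1.68 in set 1 and -5.62 in set 2. In set 2 these rest on few cells. In proximal-like cells by EGFP, Spink1 had 1.65 in set 1 and -2.12 in set 2, and Spink5 had 1.33 in set 1 and -1.45 in set 2. The Spink1 value of set 1 rests on few cells, since 5 cells held 88.4% of the Spink1 UMIs of the class. The thinned shares by EGFP overlapped for Spink1 in set 1 and for Spink5 in set 2.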

How the results depend on the processing

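Of 130 counts recomputed under the alternatives 114 stayed within 1.5 times, and of 493 single ratios 247 moved by less than their interval, 234 by more and 12 turned sign. The causes were not tested beyond what the alternatives change themselves. Ratios here are log2 values after 10 CPM were added. Clustering without integration gave Spink1 -5.19, Spink11 0.34 and Spinkl 0.017 by EGFP in luminal-like cells of set 2. In proximal-like against luminal-like cells it gave Spink1 2.64 and Spink11 3.105 in set 1 and Spink1 -0.13 in set 2, and it called 5 members in place of 2 for basal-like against luminal-like cells of set 2. EGFP limits of 50 and 5 turned Spinkl in luminal-like cells of set 1 to -0.31, and limits of 10 and 2 turned Wfdc3 in set 2 to 0.15. Leaving out the 10 highest cells of each side, chosen after seeing the data, turned Spinkl to -0.16 in luminal-like cells of set 1, Spink11 to 0.022 and Wfdc3 to 0.15 in those of set 2, and Spinkl to -0.087 in proximal-like against luminal-like cells of set 2. It left 1 call in place of 5 by EGFP in luminal-like and 0 in place of 2 in basal-like cells of set 2, and 2 in place of 4 between the sets in basal-like cells. Weighing every cell the same left 1 call by EGFP in basal-like cells of set 2. Without thinning, members with a share above that of leukocytes numbered 8 in luminal-like, 7 in proximal-like and 5 in basal-like cells of set 1, and 2 in luminal-like and 2 in Svs-led cells of set 2. By CPM, 3 members lay above leukocytes in luminal-like, Svs-led and basal-like cells of set 2, which a strict leukocyte gate made 1, 1 and 0 and cells with a Cd3 UMI made 1, 1 and 1. The alternative of any EGFP UMI against none gave no value in set 2, and clustering without integration gave none by EGFP in luminal-like cells of set 1 or between the sets in EGFP-high luminal-like cells, since a side held under 50 cells. No paired analysis was possible because no result comes from a test (1 library per group). Leaving out a replicate was not possible for the same reason. Depth limits the sums of Slpi, Spinkl and Spink11 outside the Svs-led cells of set 1, many of which rest on under 10 cells.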
